A study of Drosophila melanogaster with 24 samples.

Results

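Translation factors are the proteins that load, move and release the ribosome. Their genes were taken as all gene symbols in the deposited start-site table that begin with eIF (initiation), eEF (elongation) or eRF (release). Each gene was represented by 1 transcription start site (TSS), the promoter or 5′ UTR site with the highest mean value over the 12 libraries. This gave 46 genes of 10761 with such a site. A further 5 symbols (eIF3d2, eIF3f2, eIF3g2, eIF4E4 and eIF4H2) had sites of other annotation classes only and are not followed. The 46 genes comprised 9 of eIF2, eIF2B and eIF2D, 13 of eIF3, 9 of eIF4, 5 other initiation factors, 8 elongation factors and 2 release factors.

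Whole Drosophila melanogaster embryos of 3 strains were collected in 4 windows (0-2, 2-4, 4-6 and 6-8 h). Strains F3 and M6 have the genotype tinmDPE and strain Cas9 has the genotype tinWT, where tin is tinman, a homeobox gene of heart and mesoderm, and mDPE denotes a mutated downstream core promoter element of that gene. Every group is therefore a strain in a window, with 2 tinmDPE libraries (F3, M6) and 1 tinWT library (Cas9) per window, and a difference between genotypes cannot be told apart from a difference between strains. Capped short RNA sequencing (csRNA-seq) reads the 5′ ends of short capped RNAs, which mark where RNA polymerase II starts transcription; it does not measure mRNA or protein amounts. The libraries are of whole embryos, so fewer cells using a start and less initiation per cell cannot be told apart. Whether capped RNA in the 0-2 h libraries came from the mother or was made by the embryo was not tested. Values are the regularised log (rlog) values of the deposited table, on a log2 scale, in which a difference of 1 is a doubling and low values are pulled towards the mean of the site. Levels are not set per transcript length because each read counts a start.

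Translation starts when eIF2 carries the initiator tRNA to the small ribosomal subunit, on which eIF3 is the scaffold, and the cap-binding complex of eIF4E, eIF4G and the helicase eIF4A brings in the mRNA. The exchange factor eIF2B recharges eIF2 with GTP. In the elongation cycle eEF1alpha delivers aminoacyl-tRNA, its exchange complex eEF1beta, eEF1gamma and eEF1delta recharges it, and eEF2 moves the ribosome along. In flies, ribosomal protein genes and some translation factor genes start at a polypyrimidine initiator, called the TCT motif, in place of the common initiator with an A at the start.

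The start positions of the translation factors fell between those of ribosomal protein genes and those of genes in general. Cytoplasmic ribosomal protein genes were taken by symbol, RpL or RpS followed by a digit or P, which includes RpL24-like, RpL7-like and RpLP0-like. The TCT motif (TCTTT or CCTTT, with its C within 2 bases of the start position, sense strand) was present at 10 of the 46 genes, which is 21.7%, compared with 76 of 85 cytoplasmic ribosomal protein genes (89.4%) and 160 of all 10761 genes (1.49%). By role, 7 of 13 eIF3 genes held it (eIF3b, eIF3c, eIF3g1, eIF3i, eIF3k, eIF3l and eIF3m), as did eIF4A, eEF2 and eEF1alpha2. None of the 9 genes of the eIF2 class, the 5 other initiation factors or the 2 release factors matched. The sequences below, from RefSeq's genome of build dm6, show the motif in capitals within 30 bases, with the start position at base 16, so that 15 bases precede it and 14 follow.
eEF1alpha2, chr3R:31738493-31738522, plus strand: cgttgctttttcggTCTTTccgttttgtga
eEF2, chr2L:21682098-21682127, minus strand: ctgcagcgcctcgcTCTTTcctgtcgaaac
eIF3g1, chrX:2610315-2610344, minus strand: cggcagggtaacacTCTTTtgttgctgatt
eIF3i, chr2L:4967757-4967786, minus strand: ccacggtcacactgcTCTTTtggcgtgtag
eIF3l, chr3L:12146073-12146102, minus strand: tcacactgtttatcccTCTTTtcgccaaaa
eIF4A, chr2L:5981751-5981780, plus strand: tttgcaagatggagccTCTTTtgcttggtt

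In these lines the C of the motif was the start position itself in eEF1alpha2, eEF2 and eIF3g1, 1 base after it in eIF3i and 2 bases after it in eIF3l and eIF4A. Several members without a match still started at a pyrimidine. A C was the start base at 17 of 46 members (37.0%), against 79 of 85 ribosomal protein genes (92.9%) and 4.79% of all genes. An A was the start base at 22 members (47.8%), against 4.71% of ribosomal protein genes and 80.4% of all genes. eEF1gamma and eIF2alpha are shown for their pyrimidine runs around the start without the searched letters, and eIF4E1 and eIF4E7 for the common initiator (TCAGT or TCATT with its A within 2 bases of the start position, sense strand), in capitals.
eEF1gamma, chr3R:29220170-29220199, plus strand: ctgtttccgtcccttctcttcttcgtttcc
eIF2alpha, chrX:16446957-16446986, minus strand: taccttacgcttcttcttcttgcgcccgct
eIF4E1, chr3L:9401706-9401735, minus strand: acgttaattttttTCAGTtaatcgcgccgc
eIF4E7, chrX:1163221-1163250, minus strand: cttgtcgtttgctTCAGTcggccacgaact

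The initiator was present at 4 members (8.70%), at 0 of 85 ribosomal protein genes and at 2157 of 10761 genes in all. The DRE (TATCGATA, the site of the factor DREF, which reads the same on both strands) lay between 100 bases before and 50 after the start position at 11 members (23.9%), against 28.2% of ribosomal protein genes and 7.94% of all genes. The E-box CAGCTG, also the same on both strands, lay in that window at 4 members (8.70%), against 5.88% of ribosomal protein genes and 14.4% of all genes. A TATA box (TATAAA or TATATA on the sense strand, beginning 33 to 28 bases before the start position) was found at 0 members and at 6.55% of all genes. These are matches of letters, and no factor was measured.

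**Figure D1:**
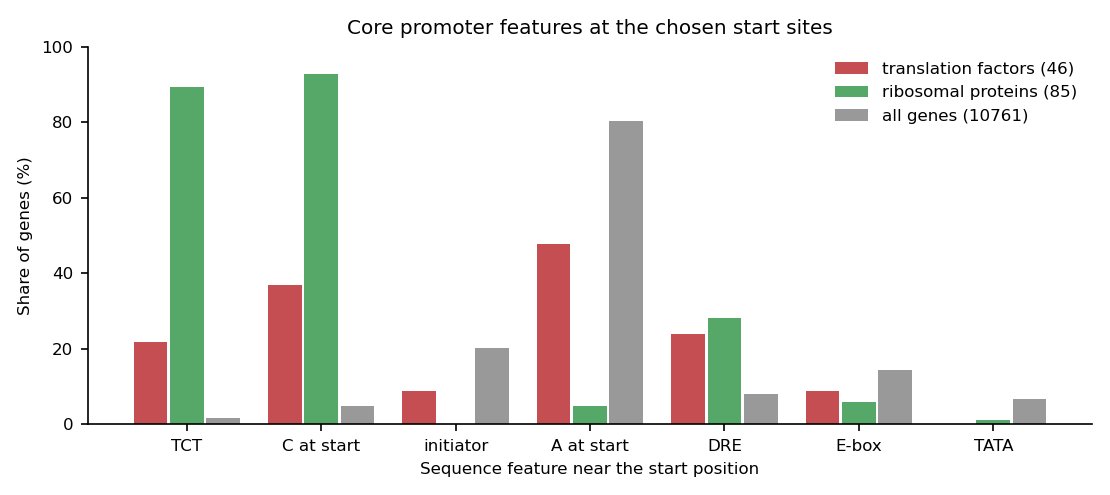
Share of genes (%, from 0) with each sequence feature near the start position, for the 46 translation factor genes, the 85 cytoplasmic ribosomal protein genes and all 10761 genes with a promoter or 5′ UTR site. The translation factors lie between the other sets for the TCT motif (21.7%) and for C at the start (37.0%).

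Among the members, 42 had their site on their own strand at their own annotated start, and 36 of the 46 lay within 50 bp of it. The other 4 sites carried the gene's symbol in the deposited table but lay elsewhere. The eIF2D site was on the opposite strand, 328 bp upstream of eIF2D and inside Slbp, the histone mRNA stem-loop binding protein gene. The eIF4G2 site was antisense, 301 bp inside eIF4G2 and within CG34355. The eIF4E5 site was 404 bp upstream, inside CG32365, and was called in 1 library. The eIF4E7 site was 846 bp upstream of eIF4E7, 870 bp from the annotated start of CR34320 on that strand, and was called in all 12 libraries. Values of these 4 are given under the gene's symbol but do not stand for its own start. The eIF2gamma start is also that of Su(var)3-9, the histone methyltransferase gene, and that of eIF5 is shared with CG46312, so these starts cannot be assigned to 1 gene.

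The start position was the same base in every library for 9 of the 19 members called in all 12. The elongation factors eEF1alpha1, eEF1beta, eEF1gamma and eEF2 and the initiation factors eIF2beta, eIF3e, eIF3i and eIF4A were among these, with eIF4E7. The widest shift among the 19 was 64 bp, at eIF4G1, the scaffold of the cap-binding complex, whose site was placed at 4 positions.

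Levels spanned a wide range. Mean rlog values over the 12 libraries ran between 14.52 at eEF1alpha1 and -1.53 at eIF4E5, with a median of 7.44 over the members, against 5.19 over all 10761 genes. Within the classes, the highest and lowest means were 9.92 for eIF2beta and 4.26 for eIF2Balpha, 10.58 for eIF3i and 5.61 for eIF3a, and 11.18 for eIF4E7 and -1.53 for eIF4E5. For the other initiation factors they were 10.59 for eIF5, which triggers GTP hydrolysis by eIF2, and 5.59 for eIF6, which holds large subunits apart from small ones. The release factors eRF3, a GTPase, and eRF1, which reads stop codons, averaged 9.71 and 9.40.

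Library depth was between 2632187 and 10553406 tags and differed between the windows. It was 2632187 to 2908161 tags at 0-2 h and 6705989 to 10553406 at 6-8 h. Depth and window therefore cannot be told apart in 6-8 h against 0-2 h, and the part of depth was not tested. The age of the collections was checked with markers. All 5 maternal and germ plasm genes (bcd, nos, osk, exu, BicC) fell in 6-8 h against 0-2 h, and their mean rlog value was 2.72 to 3.31 over the 6-8 h libraries and 7.37 to 7.93 over the 0-2 h libraries. All 4 cellularization genes fell and all 3 neural genes rose in that contrast, as did 2 of 4 segmentation and 2 of 4 mesoderm genes. Of 3 adult male genes 1 (Acp26Aa) had a site, low in every library (-1.67 to -0.69), and of 3 adult female genes none had one. The maternal markers declined with the windows in every strain, and the part of the markers in the changes described next was not tested.

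Over the whole course, translation factor starts were lower at 6-8 h than at 0-2 h. In 6-8 h against 0-2 h, 19 of 46 members (41.3%) fell and 3 (6.52%) rose past an adjusted p of 0.05 (limma with Benjamini-Hochberg adjustment over all 45839 TSSs, strain as a block). Of all TSSs 7.50% fell and 9.88% rose, and of the 10761 gene-level sites 20.4% fell and 14.3% rose. The median change was -0.79 for the members, -0.25 for the gene-level sites and -0.08 for all TSSs. With all promoter and 5′ UTR rows of a member averaged, the members' median was -0.33. That average takes in rows on the opposite strand and weak rows called in 1 library. The cytoplasmic ribosomal protein genes went further, with 64 of 85 lower, none higher and a median of -1.31. The value was lower at 6-8 h in all 3 strains for 32 of 46 members (69.6%) and higher in all 3 for 4 (8.70%), against 43.7% and 24.7% of the gene-level sites. The fall rests on few libraries: without strain F3, which leaves 2 libraries per window, 0 of 46 members and 0 of 45839 TSSs passed the threshold, although the median of the fitted changes was -0.79. Without M6 8 members fell and 1 rose, and without the tinWT strain 10 fell and 1 rose.

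**Figure D2:**
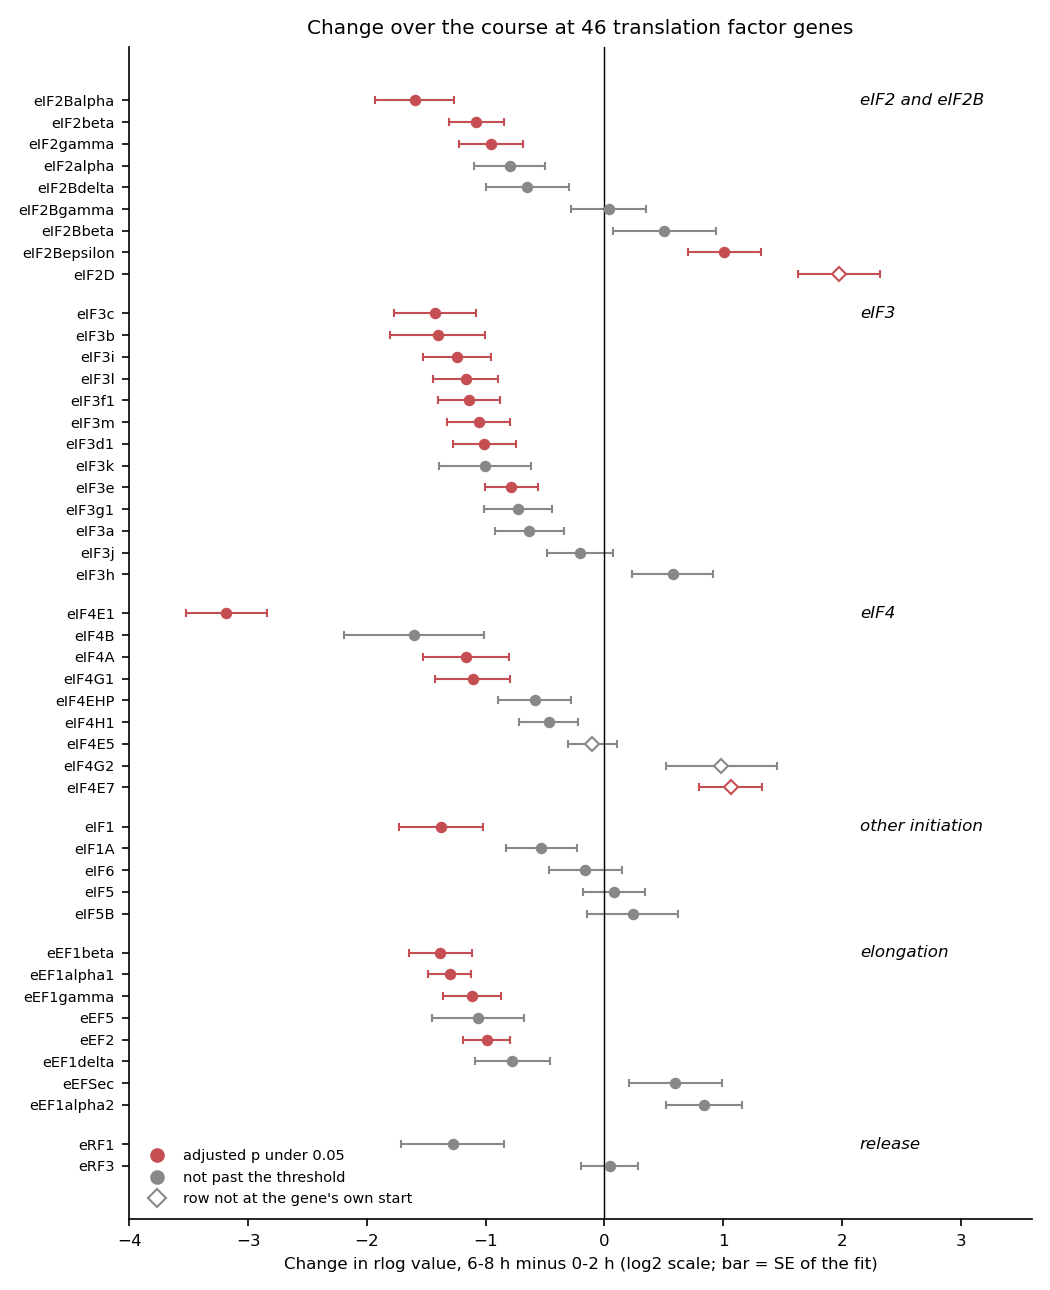
Change in rlog value (log2 scale), 6-8 h minus 0-2 h, for each of the 46 members by role, with the SE of the fit as bars. Red symbols passed an adjusted p of 0.05, 19 of them below 0 and 3 above, and open diamonds are the 4 sites that do not lie at the gene's own start.

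The cap-binding factor eIF4E1 had the largest change. Its site stood at 6.56, 6.99 and 7.09 in F3, M6 and tinWT libraries at 6-8 h, against 10.05, 10.36 and 9.78 in F3, M6 and tinWT libraries at 0-2 h. The windows did not overlap, and the change was -3.18 ± 0.34 (SE, adjusted p = 1.5e-05). In window order the means were 10.06 ± 0.29, 8.70 ± 0.75, 7.18 ± 0.33 and 6.88 ± 0.29 (SD, n = 3 strains). It was also the only member past the threshold in 2 consecutive contrasts, with changes of -1.36 ± 0.34 in 2-4 h against 0-2 h and -1.53 ± 0.34 in 4-6 h against 2-4 h (SE, adjusted p = 0.028 and 0.029). Neither step passed without F3, without M6 or without the tinWT strain. Of all 45839 TSSs 0, 0 and 0 passed the first step in these settings, and 0, 0 and 2 the second. These settings therefore cannot judge single members. The first also did not pass without the tinWT library at 2-4 h (adjusted p = 0.14), nor the second with median centring (0.0503) or without the variance trend (0.052). Among the other genes of the eIF4 class, the helicase eIF4A and the scaffold eIF4G1 fell by 1.16 and 1.11. The helicase cofactor eIF4B changed by -1.60 ± 0.59 (SE) but did not pass (adjusted p = 0.074, and 0.0028 without the tinWT library at 2-4 h). The sites named eIF4G2 and eIF4E7, neither at its own start, changed by 0.99 (not past the threshold) and 1.06 (past it).

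Of the 9 genes of eIF2, eIF2B and eIF2D 3 fell (33.3%) and 2 rose (22.2%), against 20.4% and 14.3% of the gene-level sites. The rises were at eIF2Bepsilon and at the site named eIF2D, which is not at its own start. Within eIF2B, a complex of 5 different subunits, the changes had opposite signs. eIF2Balpha, a regulatory subunit, was at 3.48, 3.53 and 3.40 in F3, M6 and tinWT libraries at 6-8 h, against 4.93, 5.23 and 5.04 in the same strains at 0-2 h. No 6-8 h library reached the 0-2 h libraries, and the change was -1.60 ± 0.33 (SE, adjusted p = 0.0029). eIF2Bepsilon, the catalytic subunit, was at 7.45, 7.71 and 7.37 in F3, M6 and tinWT libraries at 6-8 h, against 6.45, 6.45 and 6.59 in the same strains at 0-2 h. It rose by 1.01 ± 0.31 (SE, adjusted p = 0.031) and was the only member at its own start to rise past the threshold in this contrast. The adjusted p in limma was 0.24 without M6, and 0.22 without F3, where 0 of 45839 TSSs passed. The other eIF2B genes did not pass, with changes of -0.65 for eIF2Bdelta, 0.04 for eIF2Bgamma and 0.51 for eIF2Bbeta. In eIF2 itself, eIF2beta and eIF2gamma fell by 1.08 and 0.96, and eIF2alpha changed by -0.80 without passing.

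The rise at the site named eIF2D, 1.98 ± 0.34 (SE), belongs to the opposite-strand start inside Slbp. The site of mean 4.51 on eIF2D's own strand, near its own annotated start, changed by -1.06 ± 0.43 (SE, adjusted p = 0.11). That site and the other second sites described further on were chosen after their values were seen.

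Of the 13 eIF3 genes, 8 fell (61.5%) and none rose past the threshold, with a median of -1.01. Of the gene-level sites 20.4% fell and 14.3% rose. eIF3c and eIF3b, core subunits, fell by 1.42 ± 0.34 and 1.40 ± 0.40 (SE). eIF3c was at 6.84, 6.86 and 6.95 in F3, M6 and tinWT libraries at 6-8 h, against 8.39, 7.91 and 8.61 in the same strains at 0-2 h. eIF3i, the eIF3 gene of highest level, fell by 1.24 ± 0.29, and eIF3a, the lowest, changed by -0.63 ± 0.29 without passing (SE). eIF3h was the exception in sign, with 8.45, 8.29 and 7.45 in F3, M6 and tinWT libraries at 6-8 h, against 7.32, 7.45 and 7.70 in the same strains at 0-2 h. Its windows overlapped, the tinWT strain went the other way, and the change of 0.58 did not pass (adjusted p = 0.28).

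Of the 8 elongation factors, 4 fell: eEF1beta by 1.38 ± 0.27, eEF1alpha1 by 1.30 ± 0.18, eEF1gamma by 1.11 ± 0.25 and eEF2 by 0.99 ± 0.20 (SE). eEF1alpha1, the highest of all members, was at 14.13, 14.48 and 13.43 in F3, M6 and tinWT libraries at 6-8 h, against 15.50, 15.57 and 14.87 in the same strains at 0-2 h. In eEF1beta, the exchange factor, the 6-8 h values of 11.43, 11.79 and 11.33 in F3, M6 and tinWT libraries were likewise all under the 0-2 h values of 12.84, 12.62 and 13.22 in those strains. eEF5, the hypusinated factor also known as eIF5A, changed by -1.06 ± 0.39 and eEF1delta by -0.77 ± 0.32 (SE), both short of the threshold (adjusted p = 0.071 and 0.11). eEFSec, the factor for selenocysteine, was low in every library (0.81 to 2.30) and changed by 0.60 without passing.

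The paralog eEF1alpha2 took another course than eEF1alpha1. It rose early, with 5.57, 5.43 and 6.09 in F3, M6 and tinWT libraries at 2-4 h, against 4.48, 4.29 and 4.39 in the same strains at 0-2 h. The windows did not overlap, and the change was 1.31 ± 0.32 (SE, adjusted p = 0.026), the largest rise of this step among the members. Without the tinWT library at 2-4 h it was 1.17, with an adjusted p of 0.093 in limma. At 6-8 h the values were 5.76, 4.74 and 5.17 in F3, M6 and tinWT libraries, and the change from 0-2 h of 0.84 ± 0.32 (SE) did not pass (adjusted p = 0.089). Even at its highest, eEF1alpha2 stayed several log2 units under eEF1alpha1 in each library. How reads of the alike eEF1alpha genes were placed is not given in the sources used here.

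Neither release factor passed the threshold. eRF1 was at 8.59, 8.76 and 9.15 in F3, M6 and tinWT libraries at 6-8 h, against 10.03, 9.56 and 10.75 in the same strains at 0-2 h; its change of -1.28 ± 0.43 (SE) lay at the threshold (adjusted p = 0.051, and 0.0058 without the tinWT library at 2-4 h). eRF3 changed by 0.04 ± 0.24 (SE). Of the 5 other initiation factors only eIF1, which guards start codon choice, fell, by 1.37 ± 0.35 (SE). eIF5 and eIF6 changed by 0.08 and -0.16.

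**Figure D3:**
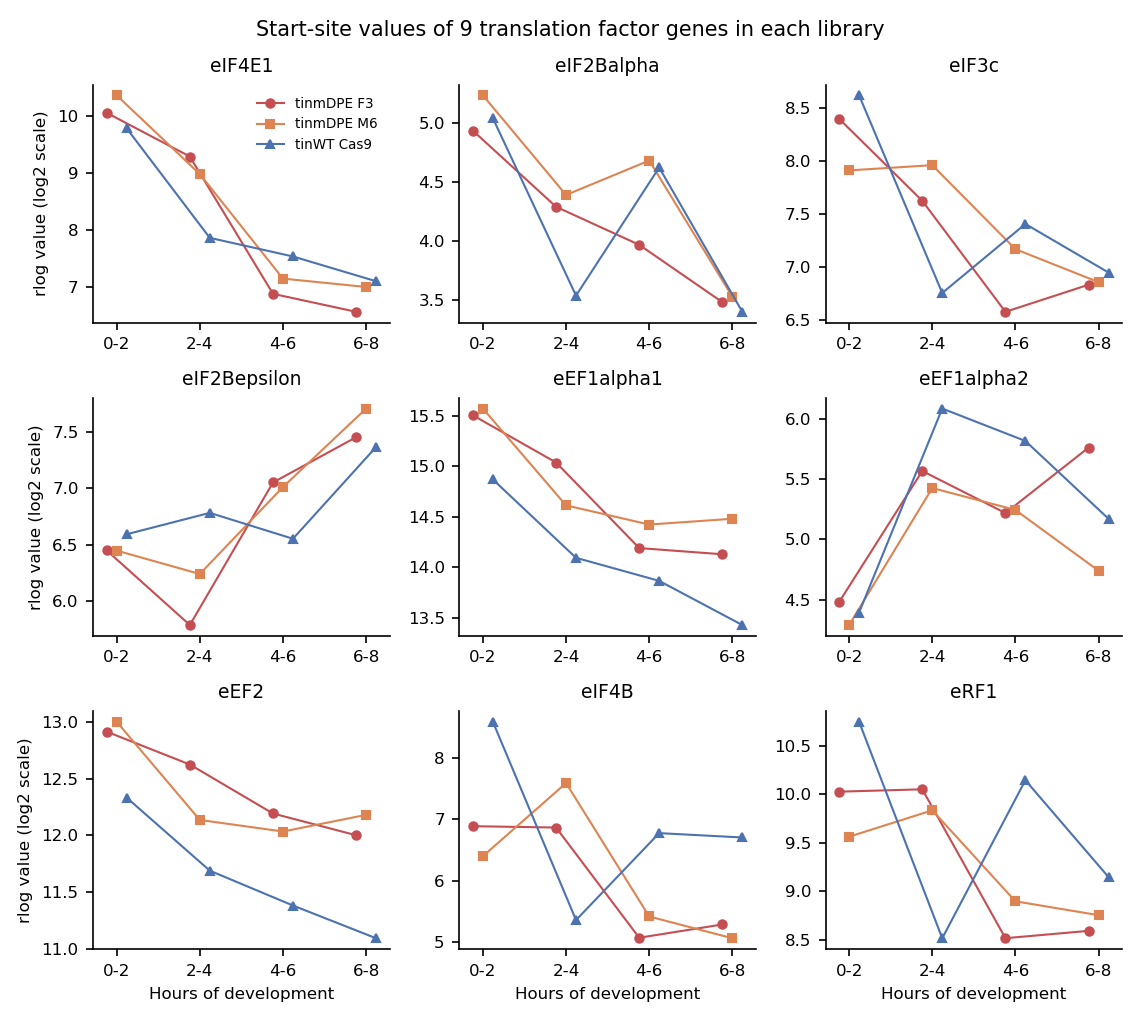
rlog value (log2 scale; each panel has its own range) of 9 members in each library by window, for tinmDPE F3, tinmDPE M6 and tinWT Cas9. eIF4E1 declines in all strains, eIF2Bepsilon ends above its start, and the tinWT values at 2-4 h lie under their neighbours in time at eIF4B (5.36) and eRF1 (8.52).

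Members with the TCT motif had a median change of -1.11 in 6-8 h against 0-2 h, and 7 of 10 fell and none rose. Members without it had a median of -0.64, with 12 of 36 lower and 3 higher. Of the gene-level sites 20.4% were lower and 14.3% higher, against 70.0% and 0.00% of members with the motif and 33.3% and 8.33% of those without. The counts describe sets of unequal makeup, and the difference between the sets was not tested. Among the 10 TCT genes, eEF1alpha2 alone had a positive change.

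In 2-4 h against 0-2 h, 4 of 46 members fell (8.70%) and 3 rose (6.52%). Of all TSSs 2.44% fell and 4.22% rose, and of the gene-level sites 7.74% fell and 4.27% rose, so the members' share of falls was near that of genes in general. With libraries centred on their medians 8 members fell and 1 rose in this step. Those that fell were eIF4E1, eIF2beta (-1.35 ± 0.23), eIF2gamma (-1.20 ± 0.27) and eEF1alpha1 (-0.73 ± 0.18, SE), and those that rose were eEF1alpha2 and the sites named eIF2D and eIF4E7. The median was -0.61, against -0.26 for the gene-level sites and -0.82 for the ribosomal protein genes, of which 20 of 85 fell. With all promoter and 5′ UTR rows of a member averaged, on either strand, the members' median was -0.17. The tinWT library at 2-4 h stood apart: its median change from 0-2 h over the members was -0.82, against -0.44 in F3 and -0.22 in M6. Without that library 1 member fell and 0 rose in this step. In 4-6 h against 2-4 h, 1 of 46 members (2.17%) passed the threshold, against 2.11% of all TSSs, and this was eIF4E1. In 6-8 h against 4-6 h none of 46 passed in limma, against 0.513% of all TSSs. At an unadjusted p under 0.05 there were 3 of 46 members, against 5257 of 45839 TSSs. Over all windows together, the F test called 19 members (41.3%), against 19.9% of all TSSs and 36.3% of the gene-level sites, which is near the members' share.

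A second promoter or 5′ UTR site on the gene's own strand was listed for 10 of the 42 members at their own start, 12 such sites in all. In 6-8 h against 0-2 h 1 of the 12 fell and 1 rose, where 7.50% of all TSSs fell and 9.88% rose. In 2-4 h against 0-2 h 1 fell and 3 rose, where 2.44% of all TSSs fell and 4.22% rose. No result is drawn about second sites as a set from these 12 sites. The genes described here were picked from these after their values were seen. At eIF4A the chosen site was at 8.32, 8.62 and 8.66 in F3, M6 and tinWT libraries at 6-8 h, against 9.79, 9.48 and 9.81 in the same strains at 0-2 h. A site 835 bp downstream of it changed by -0.18 ± 0.26 (SE, adjusted p = 0.76), with all 12 values between 7.96 and 8.77. At eIF4E1 a site 535 bp upstream was at 7.01, 7.21 and 7.33 in F3, M6 and tinWT libraries at 6-8 h, against 7.45, 7.37 and 7.78 in the same strains at 0-2 h, a change of -0.35 ± 0.30 (SE, adjusted p = 0.50). This site was above the chosen one in 3 of 3 strains at 6-8 h. A weaker site 729 bp upstream fell by 2.52 ± 0.38 (SE, adjusted p = 2.7e-04).

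At eIF2gamma a site 500 bp downstream had its highest values in the middle windows. It was at 9.66, 9.37 and 9.76 in F3, M6 and tinWT libraries at 2-4 h, against 8.16, 7.66 and 7.65 in the same strains at 0-2 h, a rise of 1.77 ± 0.26 (SE, adjusted p = 0.0024). The chosen site of that gene fell in the same step. At eIF3h a site 1030 bp from the chosen one rose by 1.53 ± 0.34 in that step and by 1.21 ± 0.34 in 6-8 h against 0-2 h (SE, adjusted p = 0.016 and 0.021). A low site of eEF1alpha2, 1155 bp from the chosen one and called in 1 library, rose by 2.17 ± 0.40 in 2-4 h against 0-2 h (SE, adjusted p = 0.0077) and changed by -0.03 over the whole course. The difference in course between sites of a gene was not tested.

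**Figure D4:**
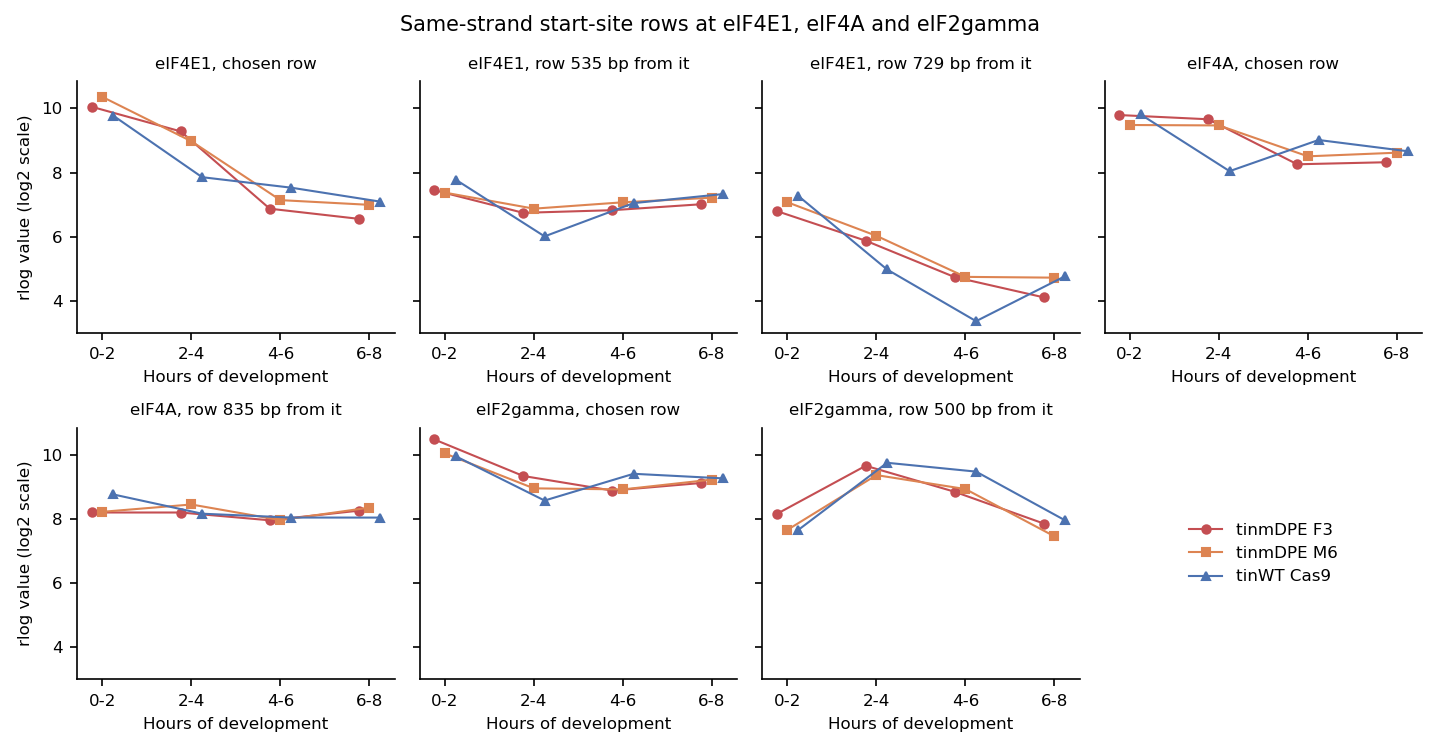
rlog value (log2 scale, shared axis) by window and strain at 7 start-site rows of eIF4E1, eIF4A and eIF2gamma, each row named by its distance from the chosen one. The row 835 bp from the chosen eIF4A site stays near 8, and the row 500 bp from the chosen eIF2gamma site is highest at 2-4 h.

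Between genotypes, 2 of 46 members (4.35%) passed the threshold, against 0.323% of all TSSs and 0.576% of the gene-level sites, both higher in tinmDPE and both elongation factors (limma with window as a term, Benjamini-Hochberg adjustment over all TSSs). eEF2 averaged 12.39 over the tinmDPE libraries and 11.62 over the tinWT libraries, a difference of 0.76 ± 0.14 (SE, adjusted p = 0.024), and was higher in 8 of 8 matched pairs of a tinmDPE and the tinWT library of a window. At 0-2 h it was 12.91 in F3, 13.00 in M6 and 12.33 in tinWT, and at 2-4 h 12.63 in F3, 12.14 in M6 and 11.69 in tinWT. At 4-6 h it was 12.19 in F3, 12.03 in M6 and 11.38 in tinWT, and at 6-8 h tinWT was lowest again, at 11.09. eEF1alpha1 averaged 14.74 over the tinmDPE libraries and 14.06 over the tinWT libraries, a difference of 0.68 ± 0.13 (SE, adjusted p = 0.024), also in 8 of 8 pairs. Neither difference passed without F3 or without M6 (for eEF2, adjusted p = 0.69 and 0.40 in limma). In both settings 0 of 45839 TSSs passed, so they cannot judge single members. The sizes of the 2 differences stayed between 0.65 and 0.81 there. Without the tinWT library at 2-4 h eEF1alpha1 did not pass either (adjusted p = 0.072 in limma). The tinWT side is 1 strain, so its spread is known only over windows, and the 2 pairs of a window share their tinWT library. Over all members the median difference was 0.05, and 26 of 46 were higher. Of the 85 ribosomal protein genes 1 was higher and 0 lower, with a median of 0.21.

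F3 and M6, the 2 tinmDPE strains, differed at none of the 46 members in limma, against 0.00218% of all TSSs called. None of the members had an unadjusted p under 0.05, against 1735 of 45839 TSSs. The differences of F3 minus M6 ran between -0.45 and 0.36.

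The genotype difference varied with the window at 4 of 46 members (8.70%), against 4.95% of all TSSs and 1.91% of the gene-level sites, by an F test of the 3 interaction terms in limma: eIF4E5, eIF4B, eRF1 and eIF2Bbeta. eIF4B averaged 7.23 in tinmDPE libraries and was 5.36 in the tinWT library at 2-4 h, and averaged 6.64 in tinmDPE libraries and was 8.58 in the tinWT library at 0-2 h. eRF1 had the same pattern of signs, with a difference of tinmDPE minus tinWT of -0.95, 1.42, -1.43 and -0.47 in window order. eIF2Bbeta had the opposite one, with 0.03, -0.84, 1.90 and 1.04. The site named eIF4E5, the lowest of the members, was called in 1 library and is not at the gene's own start. Its values were within 0.01 those of the likewise low site of the male gene Acp26Aa in all 12 libraries. They were -0.69 in the tinWT library at 2-4 h and -1.67 to -1.54 elsewhere. Of the 42 members at their own start 3 passed (7.14%). Without the tinWT library at 2-4 h none of the 4 passed, and 353 of 45839 TSSs did, against 2268 with it. Over all members the median difference of tinmDPE minus tinWT was -0.01, 0.47, -0.18 and 0.06 in window order, so 2-4 h, the window of that library, had the largest.

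**Figure D5:**
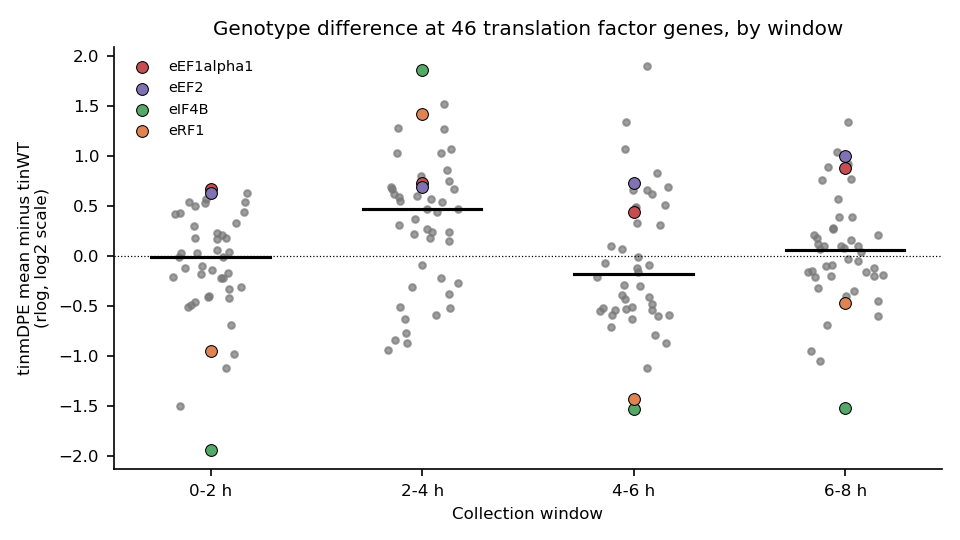
Difference of the tinmDPE mean (F3 and M6) minus the tinWT value in each window, for the 46 members (points; log2 scale), with the median as a line and 4 members coloured. eEF1alpha1 and eEF2 are above 0 in all 4 windows, and eIF4B and eRF1 are above 0 at 2-4 h and below it in the other windows.

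Of 32 symbols listed for partners and regulators of the translation factors, 26 matched a site. Among the others, Hbs1 repeats HBS1 in another spelling and 4EHP is an alias of the member eIF4EHP. In 6-8 h against 0-2 h 4 of the 26 fell (15.4%) and 3 rose (11.5%), with a median of -0.45. Of the gene-level sites 20.4% fell and 14.3% rose, so these counts are no result about the partners as a set. The largest fall was at cup, a maternal eIF4E-binding repressor, with 6.38, 6.41 and 5.85 in F3, M6 and tinWT libraries at 6-8 h, against 11.40, 10.67 and 11.12 in the same strains at 0-2 h, a change of -4.85 ± 0.37 (SE). raptor, of the TORC1 growth kinase complex, and Rheb, its activator, fell by 2.29 ± 0.31 and 1.10 ± 0.30, and NAT1, a relative of eIF4G, fell by 0.98 ± 0.28 (SE). Thor, the eIF4E-binding protein that TORC1 holds off, rose by 1.33 ± 0.34, and larp, an RNA-binding protein downstream of TORC1, rose by 1.77 ± 0.47 (SE). Of 6 mitochondrial translation factors 3 fell and none rose, with a median of -1.10.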

How the data were processed

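The authors merged the TSSs of the 12 csRNA libraries and deposited, for each, rlog values on a log2 scale (HOMER annotatePeaks.pl, same strand, build dm6), per the file headers. The merged list carries a score and called positions per library, deposited by the authors; the positions were used and the score was not. The submitters' processing notes name HOMER, STAR 2.7.10a and edgeR. Tag counts per TSS and the 12 input libraries were not used here. 0 columns of per-library values were left out.

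Fits used limma 3.58.1 in R 4.3.3 on all 45839 TSSs (lmFit, eBayes with a trend), with Benjamini-Hochberg adjustment and a threshold of 0.05. Windows were compared with strain as a block. Strains recur in every window, and the correlation of their deviations from the window means averaged 0.154 for the Cas9 libraries, 0.064 for F3 and 0.067 for M6; libraries of different strains averaged -0.048. In the window contrasts, p-values measure how the change between windows varies between strains, with 1 library per strain and window. The genotype fit has no strain term, so the libraries of a strain from different windows count as replicates. In the interaction the spread comes from F3 against M6 only. The fits and motif search were tested on simulated data. The start position was that called in most libraries, and motifs were read in the RefSeq genome, whose 7 chromosomes contain all positions.

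Members and lists were chosen with earlier results of these data known. Values were given for members past the threshold between genotypes, strains or in the interaction, the 6 largest rises and falls over the course, the largest of each step, the highest and lowest of each class, and all elongation and release factors. Other members were named as part of a count or a sequence set, after their values were seen. Alternatives were median centring, quantile normalization, a filter at the 25th percentile of the mean, no variance trend, no replicate block, libraries or windows left out, other rows per gene and other motif settings.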

Additional observations from a re-analysis of the deposited data

Results flagged for a closer look

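The genotype difference changed between windows at eIF4B (adjusted p = 0.034), eRF1 (adjusted p = 0.034), eIF2Bbeta (adjusted p = 0.038) and eIF4E5 (adjusted p = 0.016), by the F test of the interaction in limma with Benjamini-Hochberg adjustment. At eIF4B, the adjusted p was 0.12 with libraries centred on their medians, 0.043 with quantile normalization and 0.99 without the tinWT library at 2-4 h. For eRF1 it was 0.12, 0.048 and 0.83 under those settings, and for eIF2Bbeta it was 0.16, 0.038 and 0.37. At eIF4E5 it was 0.29, 0.0053 and 0.99, and its site was called in 1 library. Of all 45839 TSSs 2, 2378 and 353 passed under those settings, against 2268 as reported.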

How the results depend on the processing

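Of 182 alternative values for counts, medians and shares, 140 stayed near the reported ones and 42 moved; the cause was not tested, beyond the loss of libraries where some were left out. The count that fell in 6-8 h against 0-2 h was 18 to 20 under each scaling, filter, variance, block and row choice, and 0 (without F3) to 22 with libraries left out; the count that rose was 0 to 3 with libraries left out and 1 over the members at their own start (chosen after seeing the data). In 2-4 h against 0-2 h, 8 fell and 1 rose with libraries centred on their medians, which moved the median change of all TSSs to -0.09, against 0.09 as deposited. In that step 0 to 1 fell and 0 rose with libraries left out, and 1 rose over the members at their own start. Of all 45839 TSSs 0 passed that step without F3, without M6 or without the tinWT strain. In 4-6 h against 2-4 h, 0 passed with median centring and 0 without the variance trend, 2 with the highest row of any class, and 0 to 4 with libraries left out. The F test over windows called 0 to 26 with libraries left out.

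Between genotypes 1 member passed with quantile normalization, 0 without the variance trend, 0 without the 0-2 h, 4-6 h or 6-8 h window, 1 without the 2-4 h window, and 0 to 2 with libraries left out. Of all 45839 TSSs, too, 0 passed without F3, without M6 or without the 4-6 h window. The interaction called 0 with median centring, 0 above the 25th percentile, 0 without the variance trend and 0 without the tinWT library at 2-4 h. Over all TSSs it called 2, 5, 2 and 353 in these settings, against 2268 as reported, so the loss was not particular to the members. Averaging all promoter and 5′ UTR rows of a gene, on either strand, gave a median of -0.17 for 2-4 h and -0.33 for 6-8 h, each against 0-2 h.

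Without the replicate block 18 members fell and 3 rose over the course, and no count moved by over 1.5 times. The TCT share was 13.0% with the C exactly at the start, 28.3% within 5 bases, and 17.4% with the position of the highest library.

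Of 336 alternative values for single members 73 lost the threshold, 54 of them with libraries or windows left out, 5 gained it, and 6 changed sign, none of these 6 past the threshold as reported. In 6-8 h against 0-2 h these were, with quantile normalization, eIF4E5 (0.0013), eIF5 (-0.43), eIF6 (0.089) and eRF3 (-0.24). The highest row of any class gave eIF4G2 -1.42, and eIF5 was -0.014 to 0.19 with libraries left out. rlog values shrink weak sites, so changes at eIF4E5, eIF4G2 and eEFSec are limited by depth.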
